A study of Mus musculus with 6 samples.

Results

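The genes described here are the nuclear genes of mitochondrial complex I and its assembly factors in mouse embryonic fibroblasts (MEFs) treated with a vehicle or with 1 of 2 mitofusin compounds. They were taken from the table of raw read counts as the genes whose symbol starts with Nduf and that had at least 10 counts in every library, leaving out symbols that contain -ps. Of 53 symbols starting with Nduf, 46 met this rule, out of 55291 genes listed and 14290 that passed the filter on low counts and were tested. All 46 were among the genes tested. By role they comprised 7 core subunits, 31 accessory subunits and 8 assembly factors. The accessory class took in all remaining members, among them Ndufa4, now counted to complex IV, and Ndufs6b, annotated as a processed pseudogene. The genes left out for low counts were Ndufb4c with 4 to 14 counts, Ndufa11b with 1 to 3 and Ndufa4l2 with 0 to 2, whereas Ndufs6b, with 13 to 26 counts, lay just inside the limit. The 4 left out for their names had between 5 and 1046 counts.

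RNA-seq libraries of polyadenylated RNA were prepared from wild-type MEFs, with no deletion of the mitofusins Mfn1 and Mfn2, in 3 groups of 2 libraries each. MASM7 is a small molecule activator and MFI8 a small molecule inhibitor of the mitofusins, the outer membrane proteins that tether and fuse mitochondria. Following the treatment stated beside the study's expression panel, the MASM7 libraries were taken at 1 μM for 6 h and the MFI8 libraries at 20 μM for 6 h, and the vehicle time was not given. The series text calls the 2 libraries of a group independent biological replicates. The number of cultures or embryos behind them is not given in the sources used here.

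Complex I oxidises NADH and passes its electrons through a flavin and a chain of iron-sulfur clusters to ubiquinone, and pumps protons across the inner mitochondrial membrane. Its catalytic core comprises nuclear-encoded subunits of the matrix arm and mitochondrially encoded subunits of the membrane arm, and the accessory subunits surround this core. Assembly factors build the arms in separate modules and are absent from the finished enzyme.

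The libraries held 22791792 to 30677751 counts, of which the 46 genes took 0.280% to 0.293%. The labelled cell type was checked against its markers. At least 10 counts in every library were found for 7 of 8 fibroblast markers, with summed levels between 4056 and 5130 TPM, a unit that divides counts by gene length and scales each library to the same total. The remaining fibroblast marker, Thy1, was at 0.28 to 0.75 TPM. Of 3 endothelial markers, Kdr was at 0 in every library, Pecam1 had 0 to 7 counts and Cdh5 3 to 12, and the 3 summed to at most 0.428 TPM. Of the pluripotency markers, Pou5f1 was at 0 in every library and Nanog had 0 to 1 counts. None of 4 epithelial markers reached 10 counts everywhere, and their sum was 1.03 to 1.69 TPM. Of 3 leukocyte markers Cd68, a lysosomal protein, was at 8.91 to 11.9 TPM, while Ptprc had 0 to 2 counts and Adgre1 was at 0 in every library. Mfn1 was at 57.0 to 63.5 TPM and Mfn2 at 79.1 to 87.3 TPM over the 6 libraries. In such bulk libraries fewer cells of a type and less RNA per cell cannot be told apart.

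In vehicle-treated MEFs the complex I genes were expressed well above the typical gene. Their median level was 130.2 TPM against 18.9 TPM for all genes tested, and 41 of 46 lay above that median. Core subunits had a median of 143 TPM and accessory subunits of 139.9 TPM, while assembly factors had a median of 37.4 TPM. Within the accessory subunits, the 9 of the matrix arm had a median of 149 TPM and the 19 of the membrane arm of 139.9 TPM, with ranges that largely coincided, 26.2 to 507 TPM and 9.65 to 437 TPM. The levels spanned 93.1-fold over the 46 genes, 4.58-fold over the core, 79.9-fold over the accessory class and 11.4-fold over the assembly factors. The accessory span ran from the pseudogene Ndufs6b to Ndufa4 of complex IV, and the accessory subunits placed in an arm ran from 9.65 to 507 TPM.

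**Figure D1:**
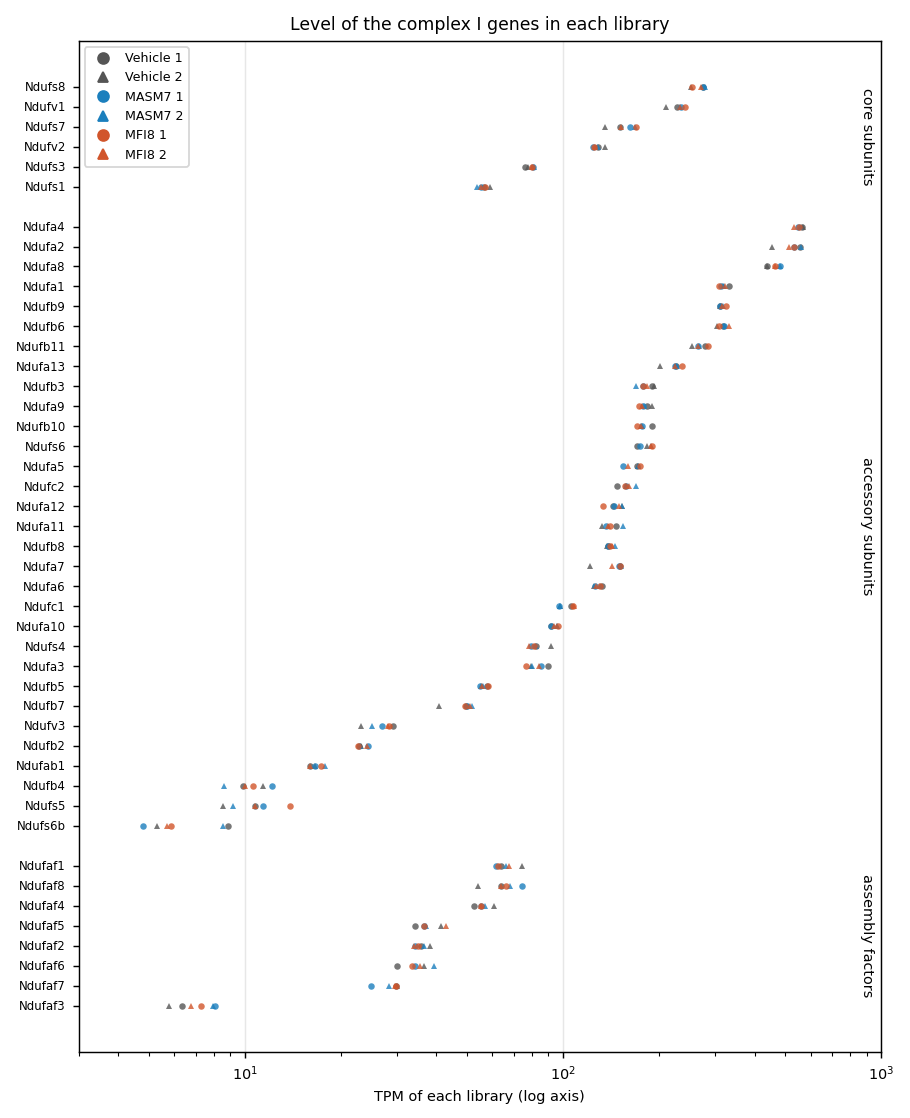
TPM of 45 of the 46 genes (logarithmic horizontal axis) in each of the 6 libraries, with circles for replicate 1, triangles for replicate 2 and colours for the groups. Genes are ordered within their class by the vehicle mean, and the vehicle means run from 6.06 TPM (Ndufaf3) to 564 TPM (Ndufa4).

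Among the core subunits, which carry the cofactors of electron transfer, Ndufs8, holding iron-sulfur clusters next to the membrane arm, had the highest level at 264 ± 17.0 TPM (SD, n = 2). Ndufv1, which binds NADH and the flavin, was at 219 ± 12.3 TPM. Ndufs7, which holds the terminal iron-sulfur cluster, followed at 143 ± 10.9 TPM and Ndufv2, which holds a further iron-sulfur cluster, at 132 ± 4.73 TPM. The values of Ndufs7 and Ndufv2 lay within their spread of each other. Ndufs3, a hydrophilic scaffold subunit, was at 77.0 ± 1.15 TPM and Ndufs1, the largest cluster-bearing subunit, at 57.7 ± 1.81 TPM. This order holds for TPM, whose length for Ndufs1 is 12.4 times its median coding transcript. Per kilobase of median coding transcript Ndufs1 had the highest level of the core, at 203 CPM. That median is only 651 bases, while the annotated coding transcripts of Ndufs1 together hold 3210 different 50-base stretches. The level of 203 CPM may therefore be too high, and the place of Ndufs1 in the core is uncertain.

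The highest levels of all were those of Ndufa4 at 564 ± 2.80 TPM (SD, n = 2), Ndufa2 at 507 ± 72.5 TPM and Ndufa8 at 437 ± 0.540 TPM. Ndufa4 keeps its complex I name but is now counted among the subunits of complex IV, Ndufa2 is an accessory subunit of the matrix arm, and Ndufa8 is a disulfide-bonded subunit on the intermembrane space side. The SD of Ndufa2 came from 558 TPM in vehicle replicate 1 and 455 TPM in vehicle replicate 2, so its place between Ndufa4 and Ndufa8 was not fixed beyond that spread. The lowest levels were those of Ndufaf3 at 6.06 ± 0.423 TPM, Ndufs6b at 7.07 ± 2.52 TPM and Ndufs5 at 9.65 ± 1.55 TPM. Ndufs6b is annotated as a processed pseudogene that shares 25.4% of its transcript's 50-base stretches with Ndufs6. Ndufs5 shares 21.7% of its stretches with BC002163, so both levels are uncertain. Of the symbols left out for their names, Ndufs5-ps was at 87.0 TPM with vehicle, Ndufa12-ps at 218 TPM, Ndufb1-ps at 116 TPM and Ndufab1-ps at 2.18 TPM.

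These levels depended on the length by which counts were divided. The deposited TPM used the merged exons of each gene, which for 11 members were over 3 times as long as the median coding transcript. Per kilobase of median coding transcript, Ndufs1 moved from rank 32 to rank 3, Ndufb8 from 21 to 2, Ndufb5 from 33 to 8 and Ndufb7 from 35 to 16. The span over the 46 genes, from Ndufs6b to Ndufa4, was then 239-fold in place of 93.1-fold. Neither divisor is the length of the transcripts in these cells, which was not measured, so neither set of ranks is firm. Transcripts of 23 members hold no 50-base stretch found in another gene, while 8 share over 20% of their stretches, which makes the levels of those 8 uncertain. The library kit does not mark strand, and exons of 16 members overlap a gene on the other strand, whose reads cannot be told apart.

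MFI8 was compared with vehicle to ask whether the mitofusin inhibitor changed complex I transcripts. None of the 46 genes passed an adjusted p of 0.05 (edgeR quasi-likelihood test with Benjamini-Hochberg adjustment), against 0% of all genes tested, and the smallest adjusted p of any gene was 0.0924. As many genes lay above vehicle as below it, 23 each, and the median log2 fold change was -0.00021 beside 0.0027 for all genes tested. At an unadjusted p under 0.05, Ndufa9 and Ndufs4 were lower, which is 4.35% of members against 4.65% of all genes tested, and 0 members were higher against 5.21%. The median log2 fold change of the members was 0.023 without vehicle replicate 1 and -0.022 without vehicle replicate 2. DESeq2 gave 0 members at an unadjusted p under 0.05 and 0 at an adjusted p under 0.05, and the share of all genes in that fit is not given here.

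Both MFI8 libraries were below both vehicle libraries for 10 members (21.7%, against 19.3% of all genes tested) and above them for 4 (8.70%, against 20.9%). The members below comprised the core subunits Ndufs1 and Ndufv2, the accessory subunits Ndufa1, Ndufa9, Ndufb3, Ndufb10 and Ndufs4, the complex IV subunit Ndufa4 and the assembly factors Ndufaf2 and Ndufaf7. Those above were Ndufs3, Ndufs6, Ndufa8 and Ndufaf3. The median log2 fold change was 0.0047 for core subunits, -0.0051 for accessory subunits and -0.0037 for assembly factors. With GC and length offsets the 3 medians were -0.022, 0.0048 and 0.015, so that each direction turned. Within replicates the direction was not stable. In the replicate 1 pair 27 members were lower and in the replicate 2 pair 20, with 13 lower and 12 higher in both. Of the 14290 genes tested, 7186 and 6918 were lower in these pairs, with 4440 lower and 4626 higher in both.

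MASM7 was compared with the same vehicle libraries to ask the same of the activator. Again 0 members passed the adjusted threshold, against 0% of all genes tested, and the smallest adjusted p over all genes was 0.466. The median log2 fold change was 0.019 beside 0.00067 for all genes tested, with 28 members above vehicle and 18 below. At an unadjusted p under 0.05, Ndufs7, Ndufa8, Ndufaf3 and Ndufaf8 were higher, which is 8.70% of members against 5.32% of all genes tested, and 0 members were lower against 4.88%. The median of the members was -0.0012 in the replicate 1 pair and 0.062 in the replicate 2 pair, beside -0.00074 and 0.0014 for all genes tested. DESeq2 gave 3 members at an unadjusted p under 0.05 and 0 after adjustment, and again the share of all genes in that fit is not given.

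Both MASM7 libraries were above both vehicle libraries for 13 members (28.3%, against 21.2% of all genes tested) and below them for 5 (10.9%, against 21.6%). The 13 comprised the core subunits Ndufs3, Ndufs7, Ndufs8 and Ndufv1, the accessory subunits Ndufa8, Ndufab1, Ndufb2, Ndufb6, Ndufb7, Ndufb9 and Ndufc2, and the assembly factors Ndufaf3 and Ndufaf8. Ndufs1, Ndufa4, Ndufa9, Ndufb3 and Ndufaf7 were the 5 below. The core had the highest class median at 0.083, beside 0.017 for the accessory subunits and -0.0066 for the assembly factors. In the core 5 of 7 genes were higher in both replicate pairs, beside 4511 of the 14290 genes tested. With GC and length offsets the core median was 0.019, below the 0.067 of the assembly factors.

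Replicate numbers were shared across groups, and fitting that number as a block changed 1 call. With the block, 1 of 46 members, Ndufs7, was higher with MASM7 than with vehicle, against 2.48% of all genes tested, and 0 members were lower, against 1.39%. The MFI8 comparison with the block gave 0 members in either direction, against 2.79% higher and 2.25% lower, and MFI8 against MASM7 gave 0 members, against 1.76% higher and 1.31% lower.

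The compounds were also set against each other at their own doses, which differed. Of the 46 genes, 38 (82.6%) lay lower with MFI8 than with MASM7, beside 50.5% of all genes tested. These were 7 of 7 core subunits, 25 of 31 accessory subunits and 6 of 8 assembly factors. The shift was small, with a median of -0.055 on the log2 scale beside -0.0015 for all genes tested, and it was -0.027 without MASM7 replicate 2. None of the 46 passed an adjusted p of 0.05, against 0% of all genes tested, and none had an unadjusted p under 0.05, where 4.23% of all genes tested were higher and 2.95% lower. The smallest adjusted p over all genes was 0.165 (edgeR quasi-likelihood test with Benjamini-Hochberg adjustment), and DESeq2 also gave 0 members at either threshold.

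Both MFI8 libraries were below both MASM7 libraries for 16 members (34.8%, against 19.6% of all genes tested) and above them for 3 (6.52%, against 19.6%). The members below comprised Ndufs3, Ndufs8 and Ndufv2 of the core and Ndufaf2, Ndufaf3, Ndufaf4 and Ndufaf8 of the assembly factors. They also comprised the accessory subunits Ndufa2, Ndufa7, Ndufa8, Ndufa9, Ndufb8, Ndufb10, Ndufc2 and Ndufs4 and the complex IV subunit Ndufa4. Those above were Ndufaf7, Ndufc1 and Ndufv3. In the replicate 1 pair 30 members were lower and in the replicate 2 pair 36, with 24 lower and 4 higher in both. Of the 14290 genes tested, 7112 and 7356 were lower in these pairs, with 4443 lower and 4265 higher in both. On log2(TPM + 1) of the deposited TPM, which carry no TMM scaling, 27 of 46 were lower with a median of -0.010, while the median over all genes tested was 0.037 and 36.6% of them were lower. Relative to that shift the members lay 0.048 lower on the log2 TPM scale, against 0.054 lower in the CPM fit.

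**Figure D2:**
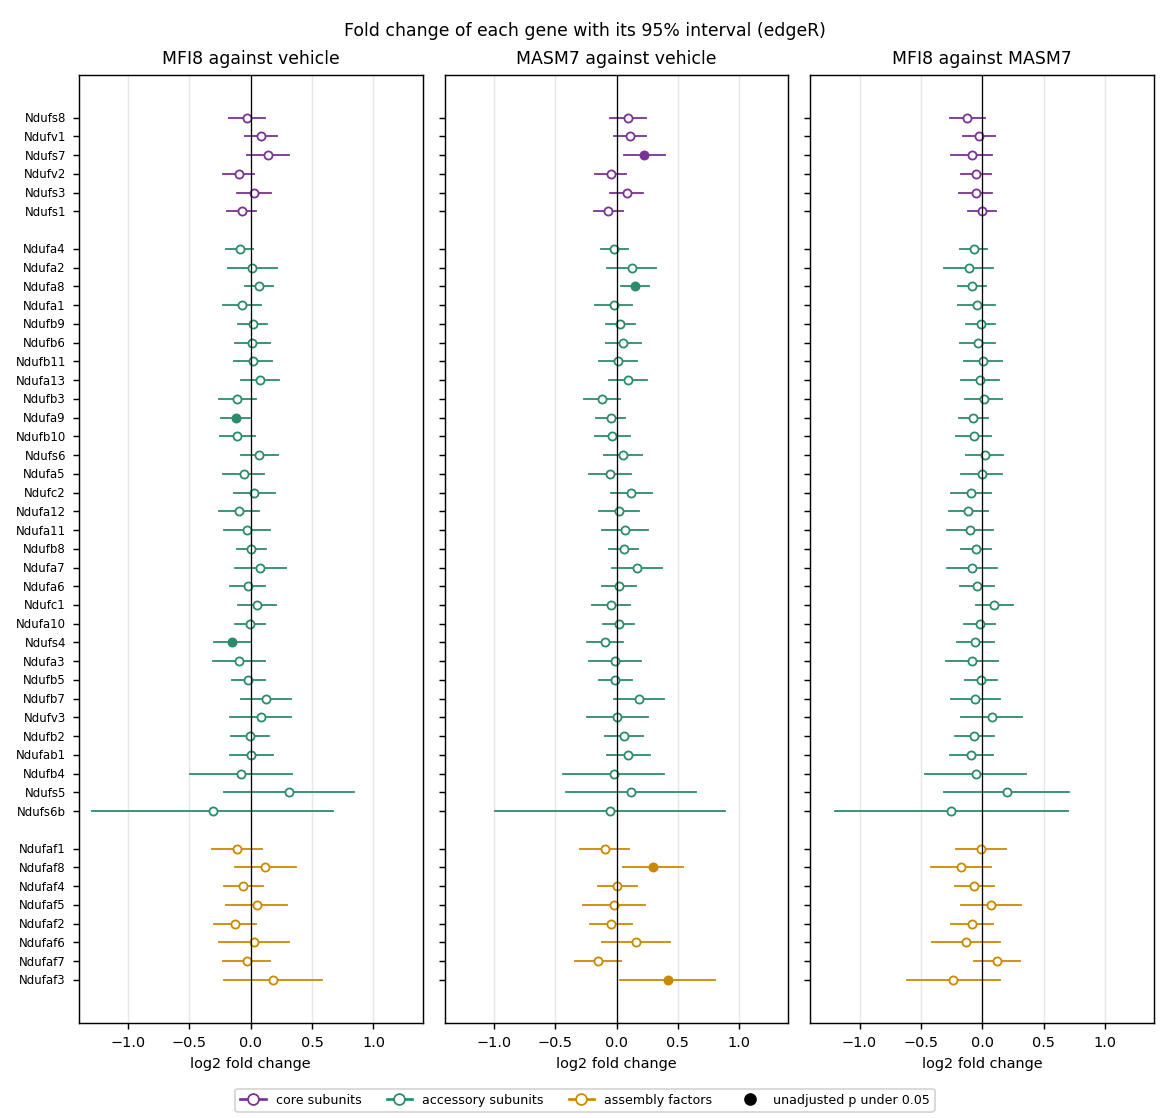
Fitted log2 fold change of 45 of the 46 genes (symbol) with its 95% confidence interval (bar) in the 3 comparisons, ordered within each class by level with vehicle. Filled symbols have an unadjusted p under 0.05, 2 for MFI8 and 4 for MASM7 against vehicle and 0 between the compounds, and in the last panel 37 of 45 symbols lie left of 0.

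The intervals set what these libraries could resolve. The median half-width of the 95% interval was 0.16 on the log2 scale in all 3 comparisons, or 11.5% for MFI8 and 11.4% for MASM7 against vehicle. The interval included 0 for 44 members with MFI8, for 42 with MASM7 and for 46 between the compounds, and it stayed within 0.5 of 0 for 43, 42 and 43. Fitted changes under 0.1 in size were seen for 34 of 46 members with MFI8, beside 49.8% of all genes tested, and for 33 with MASM7, beside 48.0%. Changes of a few percent were therefore not detectable at this number of libraries, and an exact permutation test of 2 libraries against 2 cannot give a two-sided p below 0.333.

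Core subunits were followed in each library as CPM, the counts of a gene relative to the TMM-scaled size of its library. Ndufs7 was at 73.7 and 65.3 CPM in the vehicle libraries, 79.9 and 82.7 CPM in the MASM7 libraries, and 80.7 and 72.5 CPM in the MFI8 libraries. Both MASM7 libraries lay above both vehicle libraries, while the MFI8 libraries overlapped with vehicle, whose replicate 2 was the lowest of the 6. The log2 fold change with MASM7 was 0.23 ± 0.076 (SE, 95% interval 0.058 to 0.40), a 1.17-fold higher level, with an adjusted p of 0.473 in the edgeR quasi-likelihood test with Benjamini-Hochberg adjustment and 0.0239 with the replicate block. It was 0.32 without vehicle replicate 1 and 0.14 without vehicle replicate 2. Correcting for GC content and length with offsets left 0.10, and the adjusted p of the edgeR fit with block and offsets was 0.314. Over the other alternatives, DESeq2 and limma included, the adjusted p lay between 0.0687 and 0.935. The log2 fold change with MFI8 was 0.14 (95% interval -0.030 to 0.31). The locus, chr10:80249121-80256794 on the plus strand of GRCm38, shares no 50-base stretch with another gene.

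Ndufv1 was at 171 and 156 CPM in the vehicle libraries, 177 and 176 CPM in the MASM7 libraries, and 176 and 171 CPM in the MFI8 libraries, and both MASM7 libraries exceeded both vehicle libraries. Ndufs8 was at 101 and 91.5 CPM in the vehicle libraries, 102 and 104 CPM in the MASM7 libraries, and 91.3 and 97.3 CPM in the MFI8 libraries, with vehicle replicate 2 and MFI8 replicate 1 nearly level at the bottom. Ndufs3 was at 47.3 and 47.7 CPM in the vehicle libraries, 50.1 and 50.5 CPM in the MASM7 libraries, and 48.3 and 48.4 CPM in the MFI8 libraries, so that all 4 treated libraries exceeded both vehicle libraries by a few percent. The log2 fold changes of Ndufv1, Ndufs8 and Ndufs3 were 0.11, 0.091 and 0.083 with MASM7 and 0.086, -0.031 and 0.028 with MFI8. With the GC and length offsets the MASM7 values were 0.019, -0.017 and 0.10, so that the direction turned for Ndufs8, and the MFI8 values were 0.025, -0.10 and 0.043. Ndufs3 shares 39.7% of its 50-base stretches with other genes, mostly Gm12251.

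Ndufs1 was at 129.9 and 134 CPM in the vehicle libraries, 128 and 124 CPM in the MASM7 libraries, and 127 and 124 CPM in the MFI8 libraries, so that the 4 treated libraries lay below both vehicle libraries. Ndufv2 was at 78.5 and 81.6 CPM in the vehicle libraries, 76.0 and 79.2 CPM in the MASM7 libraries, and 74.6 and 75.1 CPM in the MFI8 libraries, with both MFI8 libraries below the other 4 and MASM7 overlapping with vehicle. The log2 fold changes of Ndufs1 and Ndufv2 were -0.068 and -0.045 with MASM7 and -0.072 and -0.10 with MFI8. The offsets left -0.00055 and 0.029 with MASM7, which turned Ndufv2, and -0.025 and -0.044 with MFI8. The smallest adjusted p of the 7 core genes was 0.473 with MASM7 and 0.573 with MFI8 (edgeR quasi-likelihood test with Benjamini-Hochberg adjustment).

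Accessory subunits were described by their arm. In the matrix arm, Ndufa9, which sits near the quinone site, was at 110.2 and 113 CPM in the vehicle libraries, 107 and 109 CPM in the MASM7 libraries, and 101 and 103 CPM in the MFI8 libraries. Both MFI8 libraries were the lowest and the groups did not overlap. Its log2 fold change with MFI8 was -0.12 ± 0.052 (SE, 95% interval -0.24 to -0.0060), with an adjusted p of 0.476 in the edgeR quasi-likelihood test and 0.153 with the block. Ndufs4, whose loss in mice causes a disease resembling Leigh syndrome, was at 63.4 and 69.8 CPM in the vehicle libraries, 61.2 and 63.8 CPM in the MASM7 libraries, and 61.2 and 59.0 CPM in the MFI8 libraries. Its MFI8 libraries lay below both vehicle libraries, and its MASM7 libraries overlapped with vehicle. The log2 fold change with MFI8 was -0.15 ± 0.067 (SE), with an adjusted p of 0.506 in the edgeR test and 0.143 with the block. It was -0.22 without vehicle replicate 1 and -0.077 without vehicle replicate 2. Offsets for GC content and length left -0.10 for Ndufa9 and -0.091 for Ndufs4.

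Ndufa2, in the same arm, was at 90.8 and 73.2 CPM in the vehicle libraries, 87.1 and 91.7 CPM in the MASM7 libraries, and 84.3 and 81.4 CPM in the MFI8 libraries, with vehicle replicate 2 apart and below the rest, so that no group separated from vehicle. A like drop of vehicle replicate 2 was seen in Ndufa7 of the matrix arm, with 78.5 CPM in vehicle replicate 1 and 62.6 CPM in vehicle replicate 2, and in Ndufb7 of the membrane arm, with 64.0 and 51.8 CPM. Over the 9 matrix arm genes, the median log2 fold change was -0.025 with MFI8 and 0.017 with MASM7. With the GC and length offsets these medians were 0.021 and 0.0014, so that the direction with MFI8 turned.

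In the membrane arm, Ndufa8 was at 107 and 106 CPM in the vehicle libraries, 118 and 119 CPM in the MASM7 libraries, and 111 and 111 CPM in the MFI8 libraries. The 3 groups separated, with MASM7 highest and vehicle lowest, and replicates were nearly equal. Its log2 fold change with MASM7 was 0.15 ± 0.051 (SE, 95% interval 0.039 to 0.27), with an adjusted p of 0.473 in the edgeR quasi-likelihood test and 0.0654 with the block. With the GC and length offsets it was 0.088. With MFI8 it was 0.065. Ndufa8 lies at chr2:36036326-36049406 on the minus strand of GRCm38 and shares no 50-base stretch with another gene.

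Ndufs5, another disulfide-bonded subunit of the intermembrane space side, was at 2.63 and 2.07 CPM in the vehicle libraries, 2.81 and 2.27 CPM in the MASM7 libraries, and 3.31 and 2.56 CPM in the MFI8 libraries. Its groups overlapped, and the fitted log2 fold change with MFI8 was 0.31 (95% interval -0.22 to 0.84). Ndufs6b was at 0.877 and 0.517 CPM in the vehicle libraries, 0.473 and 0.855 CPM in the MASM7 libraries, and 0.566 and 0.551 CPM in the MFI8 libraries, and its vehicle and MASM7 replicates were farther apart than the group means. Ndufa4 of complex IV was at 221 and 219.9 CPM in the vehicle libraries, 216 and 219.6 CPM in the MASM7 libraries, and 211 and 203 CPM in the MFI8 libraries, with both MFI8 libraries lowest and log2 fold changes of -0.090 with MFI8 and -0.017 with MASM7. Both directions of Ndufa4 turned with the offsets, to 0.0055 and 0.088. Over the 19 membrane arm genes, the median log2 fold change was 0.0064 with MFI8 and 0.030 with MASM7, and 0.00083 and 0.0064 with the offsets. The smallest adjusted p of the 31 accessory genes was 0.476 with MFI8 and 0.473 with MASM7 (edgeR quasi-likelihood test with Benjamini-Hochberg adjustment).

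**Figure D3:**
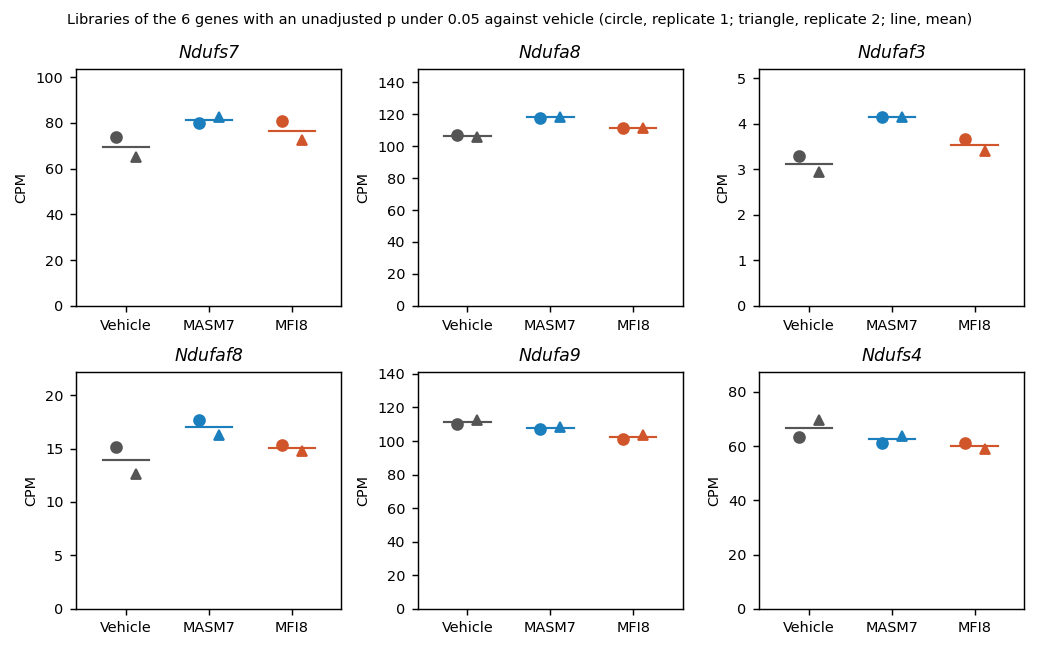
CPM of the 6 genes with an unadjusted p under 0.05 against vehicle for either compound, with a circle for replicate 1, a triangle for replicate 2 and a line for the group mean, on axes that start at 0. Ndufs7, Ndufa8, Ndufaf3 and Ndufaf8 are highest with MASM7, and Ndufa9 and Ndufs4 are lowest with MFI8.

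Assembly factors included the members with the largest fitted changes with MASM7. Ndufaf3, which with Ndufaf4 joins the early intermediates of the quinone module, was at 3.29 and 2.94 CPM in the vehicle libraries, 4.16 and 4.14 CPM in the MASM7 libraries, and 3.66 and 3.40 CPM in the MFI8 libraries. Its MASM7 libraries were the highest and nearly equal, and its MFI8 libraries also lay above vehicle. The log2 fold change with MASM7 was 0.42 ± 0.17 (SE, 95% interval 0.027 to 0.80), with an adjusted p of 0.479 in the edgeR quasi-likelihood test and 0.176 with the block, and it was 0.34 with the offsets. Exons of Ndufaf3 overlap those of Impdh2, on the other strand, by 48 bases.

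Ndufaf8, which stabilises Ndufaf5, was at 15.1 and 12.6 CPM in the vehicle libraries, 17.7 and 16.3 CPM in the MASM7 libraries, and 15.4 and 14.8 CPM in the MFI8 libraries. Its MASM7 libraries exceeded vehicle, and its MFI8 libraries overlapped with vehicle. The log2 fold change with MASM7 was 0.29 ± 0.11 (SE, 95% interval 0.049 to 0.54), with an adjusted p of 0.477 in the edgeR quasi-likelihood test and 0.0645 with the block, and it was 0.23 with the offsets. Without vehicle replicate 1 it was 0.43, and without vehicle replicate 2 it was 0.17. Ndufaf5, which hydroxylates an arginine of Ndufs7, was at 17.4 and 20.8 CPM in the vehicle libraries, 18.6 and 19.1 CPM in the MASM7 libraries, and 18.2 and 21.2 CPM in the MFI8 libraries. Its groups overlapped, with log2 fold changes of -0.021 with MASM7 and 0.048 with MFI8, and the difference between Ndufaf8 and its partner was not tested.

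Ndufaf4 was at 58.1 and 66.3 CPM in the vehicle libraries, 61.5 and 63.7 CPM in the MASM7 libraries, and 59.9 and 59.7 CPM in the MFI8 libraries. Ndufaf6, which acts early in assembly, was at 10.6 and 12.7 CPM in the vehicle libraries, 12.1 and 14.0 CPM in the MASM7 libraries, and 11.5 and 12.2 CPM in the MFI8 libraries. In both genes the treated groups overlapped with vehicle, whose replicate 2 exceeded replicate 1. Ndufaf1, which works with Acad9, Ecsit and Tmem126b on the membrane arm, was at 27.4 and 31.3 CPM in the vehicle libraries, 26.4 and 28.4 CPM in the MASM7 libraries, and 26.1 and 28.2 CPM in the MFI8 libraries, again with replicate 2 above replicate 1 in every group. Ndufaf2, a paralog of the subunit Ndufa12 that acts late in assembly, was at 30.4 and 31.9 CPM in the vehicle libraries, 29.1 and 31.3 CPM in the MASM7 libraries, and 28.9 and 28.2 CPM in the MFI8 libraries, with both MFI8 libraries below vehicle. The assembly factor Ndufaf7, an arginine methyltransferase of the mitochondrial matrix, was at 29.7 and 29.6 CPM in the vehicle libraries, 24.9 and 28.5 CPM in the MASM7 libraries, and 29.1 and 28.8 CPM in the MFI8 libraries, with both MASM7 libraries the lowest.

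The log2 fold changes of Ndufaf1, Ndufaf2, Ndufaf4, Ndufaf6 and Ndufaf7 lay between -0.13 and 0.026 with MFI8 and between -0.15 and 0.16 with MASM7. Among the 8 factors the offsets turned the direction of Ndufaf4 with MFI8, from -0.059 to 0.017, and of Ndufaf5 with MASM7, from -0.021 to 0.022. The smallest adjusted p of the 8 factors was 0.606 with MFI8 and 0.477 with MASM7 (edgeR quasi-likelihood test with Benjamini-Hochberg adjustment). A further 14 assembly factors known under other names were tested, and 0 passed adjustment in any comparison. Among them Aifm1, a flavoprotein of the intermembrane space, was the only one with an unadjusted p under 0.05, at 208 and 205 CPM in the vehicle libraries, 200 and 201 CPM in the MASM7 libraries, and 191 and 191 CPM in the MFI8 libraries. Its MFI8 libraries lay lowest, with a log2 fold change of -0.11 and an adjusted p of 0.477 in the edgeR test.

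The replicates themselves differed more with vehicle than in the treated groups. The median size of the log2 difference between replicates over the 46 genes was 0.12 with vehicle, 0.062 with MASM7 and 0.053 with MFI8, beside 0.12, 0.10 and 0.11 over all genes tested. Vehicle replicate 2 was the lowest library for 18 of 46 genes and vehicle replicate 1 the highest for 11, while MASM7 replicate 2 was the highest for 17. Summed over all members the levels were 2895 and 2795 CPM in the vehicle libraries, 2888 and 2951 CPM in the MASM7 libraries, and 2841 and 2805 CPM in the MFI8 libraries, so that the pool of complex I transcripts overlapped between both compounds and vehicle.

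GC content moved with the direction of change. Across the 46 genes, the log2 fold change against transcript GC content gave r = 0.47 and rho = 0.55 with MFI8 and r = 0.62 and rho = 0.69 with MASM7, as a description of genes that share the same libraries. Over 13989 genes with a known GC content rho was 0.30 and 0.45. The 15 members of highest GC content, 54.0% to 60.4%, included 12 above vehicle with MFI8 and 14 with MASM7, with medians of 0.072 and 0.11. The 15 of lowest GC content, 39.9% to 48.2%, included 12 below vehicle with each compound, with medians of -0.072 and -0.045. Between vehicle replicates 2 and 1 the difference also followed GC content, with r = -0.48 and rho = -0.58, whereas r was 0.020 between the MASM7 replicates and -0.16 between the MFI8 replicates.

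The 6 genes with an unadjusted p under 0.05 were all among the 15 of highest or the 15 of lowest GC content. Transcript GC content was 59.2% for Ndufs7, 57.4% for Ndufaf8, 55.3% for Ndufaf3 and 54.4% for Ndufa8, all higher with MASM7, and 48.0% for Ndufa9 and 44.3% for Ndufs4, both lower with MFI8. The median was 51.6% over the members and 50.4% over all genes with a value. With GC and length offsets, 35 of 46 members were lower with MFI8 than with MASM7, with a median of -0.047. The part of GC content in these differences was not tested further.

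**Figure D4:**
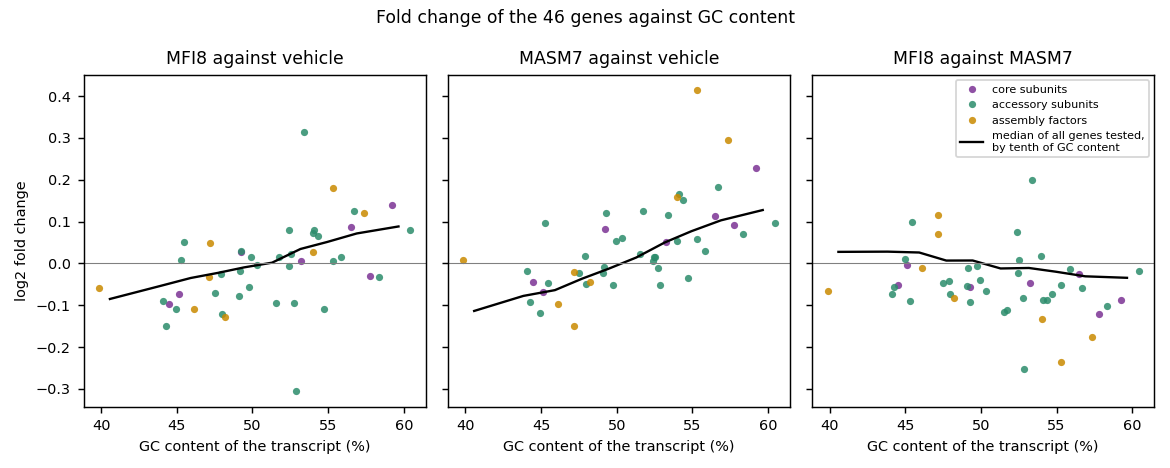
Log2 fold change of each of the 46 genes (points, coloured by class) against the GC content of its transcript in percent, for the 3 comparisons, with a line for the median of all genes tested in bins of GC content. Against vehicle the points and the line climb from left to right, and between the compounds most points lie below 0 across the whole range.

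The mitochondrially encoded subunits of the same enzyme were read beside the nuclear genes. Of 7, 5 were tested, since mt-Nd3 and mt-Nd4l had at most 2 counts. mt-Nd4, a proton-pumping subunit of the membrane arm, was at 704 and 762 CPM in the vehicle libraries, 699 and 667 CPM in the MASM7 libraries, and 553 and 547 CPM in the MFI8 libraries. mt-Nd5, the pumping subunit at the tip of that arm, was at 1765 and 2008 CPM in the vehicle libraries, 1748 and 1595 CPM in the MASM7 libraries, and 1331 and 1477 CPM in the MFI8 libraries. In both, the 2 MFI8 libraries were the lowest of the 6. The log2 fold changes with MFI8 were -0.41 and -0.43, with adjusted p of 0.0924 and 0.113 in the edgeR quasi-likelihood test, 1.1e-06 and 8.4e-06 with the block, and 1.8e-06 and 3.7e-04 in DESeq2.

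mt-Nd1, which completes the quinone site at the foot of the membrane arm, was at 3366 and 3584 CPM in the vehicle libraries, 3284 and 3045 CPM in the MASM7 libraries, and 2783 and 2745 CPM in the MFI8 libraries. mt-Nd2, another pumping subunit, was at 1635 and 1773 CPM in the vehicle libraries, 1603 and 1456 CPM in the MASM7 libraries, and 1309 and 1353 CPM in the MFI8 libraries. MFI8 was again lowest, with log2 fold changes of -0.33 and -0.36 and adjusted p of 0.0924 and 0.107 in the edgeR test, 3.9e-05 and 3.1e-05 with the block, and 2.3e-04 and 4.3e-04 in DESeq2. mt-Nd6, the one subunit encoded on the other strand of the mitochondrial genome, was at 72.2 and 64.3 CPM in the vehicle libraries, 75.4 and 74.7 CPM in the MASM7 libraries, and 66.2 and 87.9 CPM in the MFI8 libraries, with overlapping groups for MFI8 and both MASM7 libraries above vehicle. Its log2 fold change was 0.18 with MFI8 and 0.14 with MASM7, with adjusted p of 0.621 and 0.673 in the edgeR test and 0.2 and 0.32 with the block. With block and offsets it was 0.37 and 0.33, with adjusted p of 0.0082 and 0.0439 in edgeR. Relative to the vehicle mean, the median of the 5 genes was -0.38 and -0.34 in the MFI8 libraries and -0.081 and -0.19 in the MASM7 libraries, whereas the median of the 7 nuclear core subunits was 0.026 and 0.015 with MFI8 and 0.078 and 0.089 with MASM7. With GC and length offsets the median log2 fold change over the 5 went from -0.36 to -0.21 with MFI8, and from -0.14 to 0.0057 with MASM7, where 1 of 5 was then lower in place of 4. Mitochondrially encoded genes of all kinds took 1.66% to 1.82% of counts in the vehicle libraries, 1.51% to 1.61% in the MASM7 libraries and 1.37% to 1.43% in the MFI8 libraries. A test of the difference between nuclear and mitochondrial subunits was not made.

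**Figure D5:**
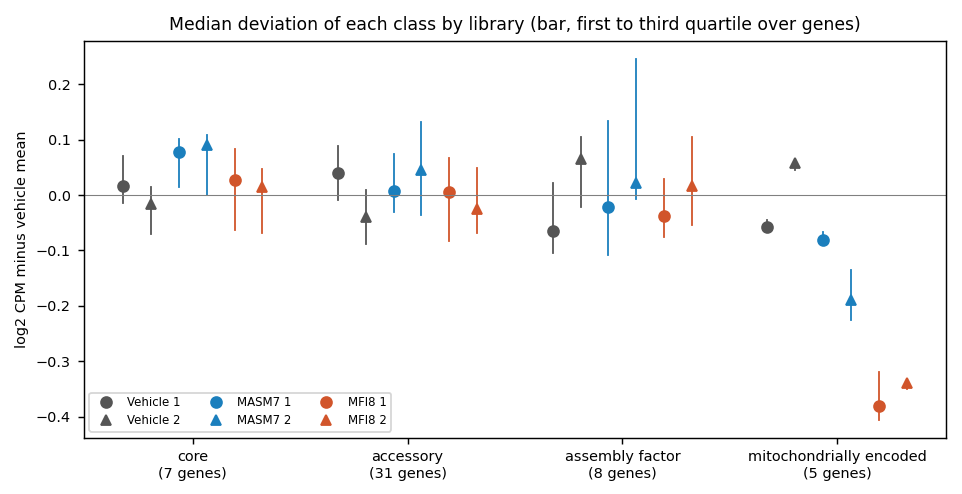
Median log2 CPM of each class minus its vehicle mean, by library (symbol), with a bar from the first to the third quartile over the genes of the class. The medians of the 3 nuclear classes stay within 0.1 of 0 in all 6 libraries, while their bars reach up to 0.25, for assembly factors in MASM7 replicate 2. The medians of the 5 mitochondrially encoded genes lie at -0.38 and -0.34 in the MFI8 libraries.

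Start-site sequences were examined for letters that nuclear respiratory factors and other common promoter factors are known to bind. Windows of 300 bases around the gene start, the last 50 of them inside the gene, from RefSeq on GRCm38.p6, were matched for 40 of 46 members and 27025 genes in all, of which 9317 had at least 10 counts in every library. Both strands were searched. The NRF1 letters, GCGCA, any base and GCGC, were found in 9 of 40 members (22.5%), beside 5.19% of all windows and 12.4% of those of expressed genes. They were in 0 of 5 core windows, 7 of 28 accessory windows and 2 of 7 assembly factor windows. The ETS letters CCGGAAG, known for the GABPA factor (also called NRF2), were in 6 members (15%), beside 9.93% and 21.5%. The YY1 letters ANATGGC, which include a start codon, were in 17 (42.5%), beside 17.1% and 18.2%. The GC box GGGCGG was in 21 (52.5%, beside 38.2% and 71.1%), CCAAT in 14 (35.0%, beside 41.1% and 43.5%) and TATAAA in 4 (10%, beside 15.7% and 8.26%).

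The 120 bases before the RefSeq start are shown for 5 members, 5′ to 3′ along the gene and in GRCm38.p6 coordinates. Ndufaf3, Ndufaf8 and Ndufa9 are shown as members with an unadjusted p under 0.05 against vehicle, and Ndufaf4 and Ndufa11 as members with NRF1 letters. The other genes with such a p are not shown, since 68 or more of those bases lie inside the gene as GENCODE annotates it. Capitals mark the YY1 letters read on the opposite strand in Ndufaf3, the ETS letters in Ndufaf8, and the NRF1 letters in Ndufaf4 and Ndufa11, and no searched NRF1, ETS or YY1 letters are in the stretch of Ndufa9.
Ndufaf3, chr9:108567437-108567556, minus strand: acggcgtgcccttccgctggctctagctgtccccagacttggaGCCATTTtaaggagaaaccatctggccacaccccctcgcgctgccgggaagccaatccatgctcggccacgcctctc
Ndufaf8, chr11:120098814-120098933, plus strand: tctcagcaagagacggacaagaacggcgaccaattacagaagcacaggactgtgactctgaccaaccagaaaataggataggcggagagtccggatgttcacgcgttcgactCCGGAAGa
Ndufa9, chr6:126849145-126849264, minus strand: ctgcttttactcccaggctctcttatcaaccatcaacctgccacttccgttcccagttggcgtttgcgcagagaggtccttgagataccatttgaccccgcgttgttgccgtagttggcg
Ndufaf4, chr4:24897963-24898082, plus strand: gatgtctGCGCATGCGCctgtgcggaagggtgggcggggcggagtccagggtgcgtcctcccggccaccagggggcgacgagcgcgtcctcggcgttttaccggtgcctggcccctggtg
Ndufa11, chr17:56717642-56717761, plus strand: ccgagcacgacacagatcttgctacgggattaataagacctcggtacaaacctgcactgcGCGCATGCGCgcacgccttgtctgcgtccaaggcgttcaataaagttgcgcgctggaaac
The first base of the match lay 77 bases before the start in Ndufaf3, 8 bases in Ndufaf8, 113 bases in Ndufaf4 and 60 bases in Ndufa11. Ndufaf4, which carries NRF1 letters, had log2 fold changes of -0.059 with MFI8 and 0.0076 with MASM7, and Ndufa11, a membrane arm subunit, of -0.032 and 0.071. A match describes the letters of the window only, and binding was not measured.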

How the data were processed

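RNA-seq of 6 libraries of WT MEFs was analysed, 2 for each of vehicle, MASM7 and MFI8. Per the study's methods, the authors used Trimmomatic for trimming, STAR for alignment to GRCm38 and featureCounts for counting over exons. The deposited raw counts are whole numbers of reads per gene. The authors also deposited TPM, and their lengths equal merged GENCODE vM21 exons for 46 of 46 genes within 10%. The strand setting is not given in the sources used here. The deposited normalized values were not used.

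All 6 libraries were fitted together in edgeR 4.0.16 (R 4.3.3) with filterByExpr, TMM, 1 coefficient per group and the quasi-likelihood test, adjusted by Benjamini-Hochberg over 14290 genes at 0.05. An SE is the size of the log2 fold change over the square root of F. The scripts were tested on simulated data. Alternatives were DESeq2 1.42.0, limma 3.58.1 on log2(TPM + 1) and log2(TPM + 0.1), other scalings and filters, GC and length offsets by lowess with a span of 0.3, and leaving out each library. Depth was 22791792 to 30677751 counts, and intervals cover the spread between these libraries only.

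Pairing came from the replicate numbers of the labels. The differences between replicates 2 and 1 correlated between groups over all genes tested, with r = 0.19 for vehicle and MASM7, 0.15 for vehicle and MFI8 and 0.16 for MASM7 and MFI8. Over the 7145 genes of higher level r was 0.51, 0.62 and 0.54, and over the 46 members with r = -0.23, 0.34 and 0.20, as a description.

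Values of single libraries are given for the core subunits, except 1 member that is not reported singly here, the Ndufaf genes, members with an unadjusted p under 0.05 or an adjusted p under 0.05 with the block, and the 3 highest and 3 lowest members by vehicle TPM. Ndufa7 and Ndufb7 were named, and the genes with printed sequences chosen, after their values were seen. Members and lists were chosen with earlier results of these data known.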

Additional observations from a re-analysis of the deposited data

How the results depend on the processing

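No member passed the adjusted threshold under any alternative, except Ndufs7 with MASM7 under the replicate block (1 member, adjusted p = 0.0239 in edgeR's quasi-likelihood test), and the block changed no other call of a member. Counts at an unadjusted p under 0.05 moved more. The share of all genes tested is not given for these alternatives, so the counts are not read as changes of the members. Over all genes tested, MASM7 against vehicle went from 0 adjusted calls to 355 higher and 199 lower with the replicate block in edgeR. For MFI8 against vehicle the count of 2 was 4 with the replicate block, 5 with block and GC and length offsets, 1 with the offsets alone, with no filter beyond 1 count and with limma on log2(TPM + 1) or log2(TPM + 0.1), and 0 with library size alone, with only the 2 groups compared and with DESeq2 with or without the block. The fits without 1 library leave 1 library in a group, so their counts are not given. For MASM7 against vehicle the count of 4 was 9 with the replicate block and with block and offsets, 8 with no filter beyond 1 count, and 2 with DESeq2 with the block or with the offsets alone, and it was 0 to 10 when 1 library was left out. For MFI8 against MASM7 the count of 0 was 2 with the replicate block, 4 with block and offsets, and 1 with each limma fit. The median log2 fold change of the members ranged from -0.026 to 0.026 for MFI8 and from -0.0012 to 0.063 for MASM7 against vehicle, so its sign was not fixed, and from -0.071 to -0.010 between the compounds. The last value is that of limma on log2(TPM + 1), -0.010 with or without a filter, while log2(TPM + 0.1) gave -0.011. These TPM values are not scaled by TMM. Other causes were not tested. Levels per length depended on the gene model, as given for Ndufs1, Ndufb8, Ndufb5 and Ndufb7. With 2 libraries a group, changes of a few percent could not be resolved.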
